A study of Homo sapiens with 8 samples.

Results

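The p53 target genes described here are MDM2, CDKN1A, GDF15, SESN1, SESN2, ZMAT3, FDXR, RRM2B and TP53I3, chosen by symbol as widely used readouts of the p53 pathway. All 9 were found among the 25435 gene symbols of the count table, and all 9 passed the filter on low counts. They were measured in 8 RNA-seq libraries of SET-2 cells, an established line from an essential thrombocythemia at megakaryoblastic transformation. The series title describes the disease setting as driven by a mutant JAK2. Of the libraries, 4 came from cells transduced with a PLKO5 GFP virus carrying a guide RNA against ZRSR2, labelled ZRSR2 KO, and 4 from cells given the same virus with a non-targeting guide, labelled ZRSR2 wildtype. Both genotypes used 2 guides, with 1 library per guide in each of 2 experiments. The protocol text gives collection on day 20 after transduction for one biological replicate and on day 25 for the other, and reading the experiment number as the replicate number is an assumption. No sorting for GFP and no selection of clones is described, so the transduced cells are treated here as mixed cultures.

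p53 is a transcription factor that accumulates after DNA damage, oncogene activity or nucleolar stress and binds response elements made of paired decamers near its target genes. MDM2, itself a target, encodes the ubiquitin ligase that returns p53 to a low level. The other targets carry out its outputs: cell cycle arrest through CDKN1A, stress signalling through GDF15 and the sestrins, and RNA regulation, metabolism and nucleotide supply through ZMAT3, FDXR, TP53I3 and RRM2B. Several of these genes also answer to other factors, and GDF15 and SESN2 in particular are known targets of the stress factor ATF4.

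The guides that define the knockout libraries are shown first, 5′ to 3′, because every genotype comparison rests on them.
ZRSR2 guide 1: tgacgtttcccgagaaacca
ZRSR2 guide 2: acagttcctagacttctatg

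RefSeq promoter windows, each holding 250 bases before and 50 after an annotated start, were found for 8 of the 9 genes, in 15 windows. They were searched for a pair of adjacent p53 decamers with no spacer, with the CNNG centre of each decamer fixed and at most 3 of the 20 letters off the consensus. The motif reads the same on both strands, and no other motif was searched. It was present in 1.12% of all 35116 windows and for 1.37% of all 27305 symbols. Matches were found for MDM2, GDF15, SESN1 and FDXR, and the matched letters are printed in capitals below, on GRCh38.p14, since these are the stretches of the members' promoters that carry the pathway's own motif.
MDM2 (chr12:68808903-68808962, plus strand): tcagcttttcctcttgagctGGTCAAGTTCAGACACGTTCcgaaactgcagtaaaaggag
SESN1 (chr6:109008998-109009057, minus strand): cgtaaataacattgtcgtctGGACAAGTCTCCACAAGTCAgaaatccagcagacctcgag
FDXR (chr17:74872995-74873035, minus strand): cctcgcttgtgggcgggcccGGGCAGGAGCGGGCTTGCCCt
GDF15 (chr19:18386186-18386205, plus strand): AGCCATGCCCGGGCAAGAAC
The MDM2 match had 2 letters off the consensus and the others had 3. It lay 74 bases before one of the gene's downstream starts, which belong to the internal promoter known from textbooks as the p53-responsive one, and counts per gene do not separate transcripts of that promoter from the rest. The SESN1 match ended 29 bases before a start and the FDXR match 1 base before one. The GDF15 match began 29 bases after the start. The windows of CDKN1A, SESN2, ZMAT3 and TP53I3 held no match, which says only that these letters are not in these windows. A match is a description of letters and was not tested for binding.

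Library totals ran from 31106042 to 71521173 expected counts, and 14898 genes were tested. Most megakaryocytic markers were present, with 8 of 11 at a mean of at least 5 CPM, which are counts scaled to the library total. PF4 averaged 1.58 CPM, PPBP 0.596 CPM, and GP1BB was listed at 0. The 11 summed to between 3010 and 3850 CPM, and the 3 T cell markers to between 0.0562 and 0.274 CPM. Sums were at most 1.04 CPM for monocyte and 7.35 CPM for fibroblast markers. They were 10.3 to 51.2 CPM for B cell and 30.4 to 45.9 CPM for epithelial markers. ZRSR2, the targeted gene, averaged 24.8 ± 4.99 CPM in the knockout libraries and 39.5 ± 1.34 CPM in the non-targeting ones (SD, n = 4 each), and the genotypes did not overlap. Its log2 fold change was −0.67, with SE 0.15 and adjusted p-values of 1 in edgeR with genotype alone and 0.275 with a term for the experiment, so it was not called. The labels do not say that libraries of one genotype came from separately thawed or transduced cultures beyond the guides and experiments, so p-values measure the spread between these libraries.

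At baseline, the members ranged from CDKN1A, at percentiles 63.0 to 78.6 of the expressed genes in the non-targeting libraries, to GDF15, at percentiles 24.5 to 47.3. Levels between genes were compared per kilobase of exon, as RPKM, and ranked among the 14772 genes that had a length and a count in every library, whose median was 4.37 RPKM in the non-targeting libraries. The median of the 9 members there was 4.81 RPKM, at percentile 52.1, and 5 of 9 lay above the median gene. For a further list of 45 p53 targets the median was 6.55 RPKM and percentile 59.4, over the 40 that could be ranked. These ranked targets reached from percentile 5.95 to 93.2.

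CDKN1A, the p21 inhibitor of cyclin-dependent kinases, was the highest per kilobase, at 11.6 ± 4.21 RPKM (SD, n = 4 non-targeting libraries). FDXR, a mitochondrial ferredoxin reductase, followed at 5.61 ± 0.418 RPKM, and its range did not overlap that of CDKN1A. SESN1, a sestrin that restrains mTORC1 signalling, stood at 5.36 ± 1.75 RPKM, MDM2 at 5.05 ± 0.638 RPKM and the second sestrin, SESN2, at 4.81 ± 0.589 RPKM. FDXR, SESN1 and MDM2 each overlapped the next gene in this order. SESN2 and ZMAT3, a zinc finger protein that regulates RNA, did not overlap, with ZMAT3 at 3.38 ± 0.225 RPKM. RRM2B, the p53-inducible small subunit of ribonucleotide reductase, was at 3.36 ± 0.338 RPKM and overlapped ZMAT3. TP53I3, a quinone oxidoreductase, was at 2.85 ± 2.11 RPKM. GDF15, a secreted stress cytokine, was the lowest at 1.81 ± 1.42 RPKM. In these 4 libraries every member but SESN2 and RRM2B had levels that did not overlap between the experiments. The share of all genes that did so here was not computed, so this cannot be read as a trait of the members. Across all 8 libraries 56% of tested genes did not overlap between the experiments. That split sets 4 libraries against 4 and is harder to meet, so it is not a background for this count. The order of the members differed between experiments. In experiment 1 TP53I3, at 4.65 and 4.70 RPKM in the 2 non-targeting libraries, lay above ZMAT3 and RRM2B. In experiment 2, at 0.98 and 1.06 RPKM, it lay below GDF15, at 3.72 and 2.05 RPKM. Lengths came from another genome build than the counts. With the longest transcript in place of the exon union, GDF15 moved to 3.14 RPKM, SESN1 to 7.82 RPKM, FDXR to 8.14 RPKM and RRM2B to 3.78 RPKM. The order depends on the annotated lengths, with an exon union of 13284 bases for MDM2 and 3050 bases for CDKN1A. Before division by length MDM2 was above CDKN1A, at means of 67.1 and 35.4 CPM in the non-targeting libraries.

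**Figure D1:**
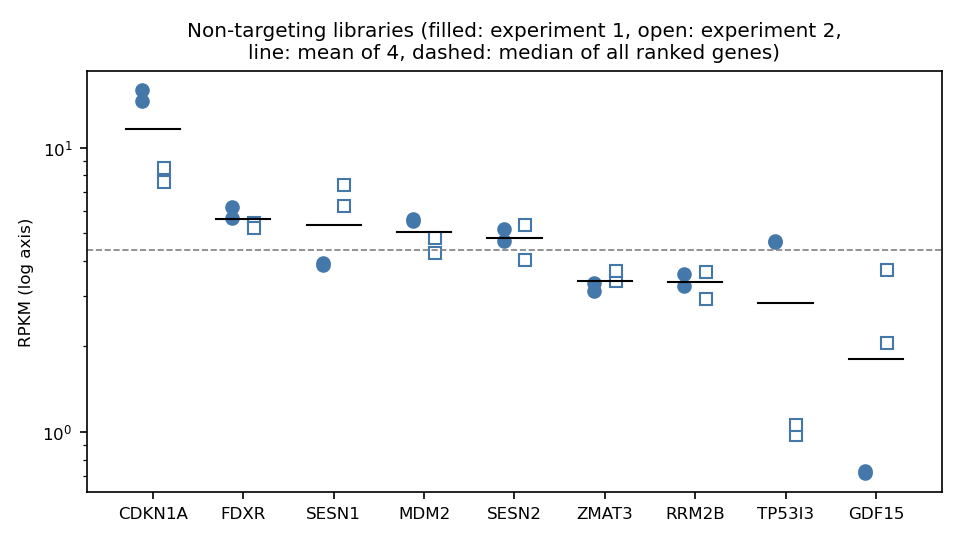
Levels of the 9 p53 target genes per kilobase of exon (RPKM, log axis) in the 4 non-targeting libraries, with filled circles for experiment 1, open squares for experiment 2, a line at the mean of 4 and a dashed line at the median of all ranked genes. CDKN1A has the highest mean, 11.6 RPKM, while TP53I3 and GDF15 split by experiment on opposite sides of each other.

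CDKN2A, which encodes the MDM2 inhibitor ARF as well as p16, had 0 counts in all 8 libraries. A count of 0 allows up to 3 counts, and 1 count was worth 0.0324 CPM in the shallowest library, for counting error only. CDKN2A belongs to the list of p53 regulators and is named here after its values were seen.

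Experiment 2 was compared with experiment 1 over both genotypes, to see how stable the p53 targets were between collections. The answer differed from gene to gene: CDKN1A, TP53I3 and MDM2 fell, GDF15 and SESN1 rose, and SESN2, ZMAT3, FDXR and RRM2B did not pass the test. Thus 5 of 9 members were called, 3 lower and 2 higher, by edgeR's quasi-likelihood test with Benjamini-Hochberg adjustment at 0.05. Over all tested genes the called share was 58.2%, with 29.6% higher and 28.6% lower, so the members' share was close to the background. Among all genes 14.2% were both called and changed at least 2-fold, and 3 of the 9 members were, namely CDKN1A, TP53I3 and GDF15. In 5 of 9 members the 4 libraries of one experiment did not overlap the 4 of the other, against 56% of all tested genes. In bulk RNA, fewer cells expressing a gene and less RNA per cell cannot be told apart. The experiment also cannot be told apart from the day of collection. Neither experiment was repeated, so the SDs and p-values of this comparison measure the spread between libraries within an experiment. They do not measure the spread between collections.

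The arrest gene CDKN1A stood at 48.4 and 44.5 CPM in the non-targeting libraries and 51.7 and 51.7 CPM in the knockout libraries of experiment 1. In experiment 2 it stood at 23.1 and 25.9 CPM in the non-targeting and 21.9 and 24.3 CPM in the knockout libraries. Every library of experiment 2 lay far below every library of experiment 1, in both genotypes. The mean fell from 49.1 ± 3.45 to 23.8 ± 1.67 CPM (SD, n = 4). On the log2 scale the change was −1.04, with SE 0.08 and adjusted p = 3.72e-06 in edgeR.

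TP53I3 showed the steepest fall of the 9. It was at 10.7 and 10.9 CPM in the non-targeting and 12 and 9.85 CPM in the knockout libraries of experiment 1. In experiment 2 the non-targeting libraries gave 2.27 and 2.45 CPM and the knockout libraries 2.57 and 4.55 CPM, so one knockout library, that of ZRSR2 guide 2, was higher than the other 3. The means were 10.9 ± 0.900 and 2.96 ± 1.07 CPM (SD, n = 4). The change was −1.91 on the log2 scale, with SE 0.17 and adjusted p = 8.44e-06 in edgeR.

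MDM2, the negative regulator in the p53 loop, fell more mildly. It was at 73.4 and 74.5 CPM in the non-targeting and 73.0 and 74.8 CPM in the knockout libraries of experiment 1, a spread of only 0.846 CPM (SD, n = 4). In experiment 2 it was at 56.6 and 63.9 CPM in the non-targeting and 64.8 and 56.5 CPM in the knockout libraries. The experiments did not overlap, and within experiment 2 the high and low values fell in both genotypes. The log2 change was −0.29, with SE 0.08 and adjusted p = 0.00752 in edgeR.

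GDF15 and SESN1 went the other way. GDF15 was at 1.52 and 1.49 CPM in the non-targeting and 1.1 and 1.46 CPM in the knockout libraries of experiment 1, on 39 to 69 counts per library. In experiment 2 it reached 7.77 and 4.29 CPM in the non-targeting and 6.33 and 5.34 CPM in the knockout libraries, so the spread between the control guides was larger than that between genotypes. Mean GDF15 went from 1.39 ± 0.200 up to 5.93 ± 1.48 CPM (SD, n = 4). This was 2.09 on the log2 scale, with SE 0.21 and adjusted p = 1.66e-05 in edgeR.

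SESN1 was at 20.2 and 19.9 CPM in the non-targeting and 18.6 and 21.4 CPM in the knockout libraries of experiment 1. In experiment 2 the values were 31.9 and 37.9 CPM in the non-targeting and 35.1 and 28.5 CPM in the knockout libraries. No library of experiment 2 reached down to the range of experiment 1. The log2 change was 0.74, with SE 0.10 and adjusted p = 1.34e-04 in edgeR.

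The remaining members varied less between the experiments. SESN2 had means of 18.8 ± 2.14 CPM in experiment 1 and 15.9 ± 2.29 CPM in experiment 2, with overlapping libraries and an edgeR adjusted p of 0.113. Without non-targeting replicate 3 its log2 fold change moved from −0.23 to −0.34 and its adjusted p to 0.0166. So the related sestrins SESN1 and SESN2 had log2 fold changes of opposite sign, of which only that of SESN1 passed the test with all libraries. ZMAT3 was at 30.6 ± 1.00 and 32.9 ± 2.28 CPM, FDXR at 20.1 ± 2.11 and 18.6 ± 0.746 CPM, and RRM2B at 19 ± 0.898 and 18.2 ± 2.24 CPM (SD, n = 4 each). Their log2 fold changes lay between −0.11 and 0.10, with edgeR adjusted p-values of 0.304, 0.319 and 0.643. The 95% intervals of these 3 differences reached from −0.32 to 0.28 on the log2 scale.

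**Figure D2:**
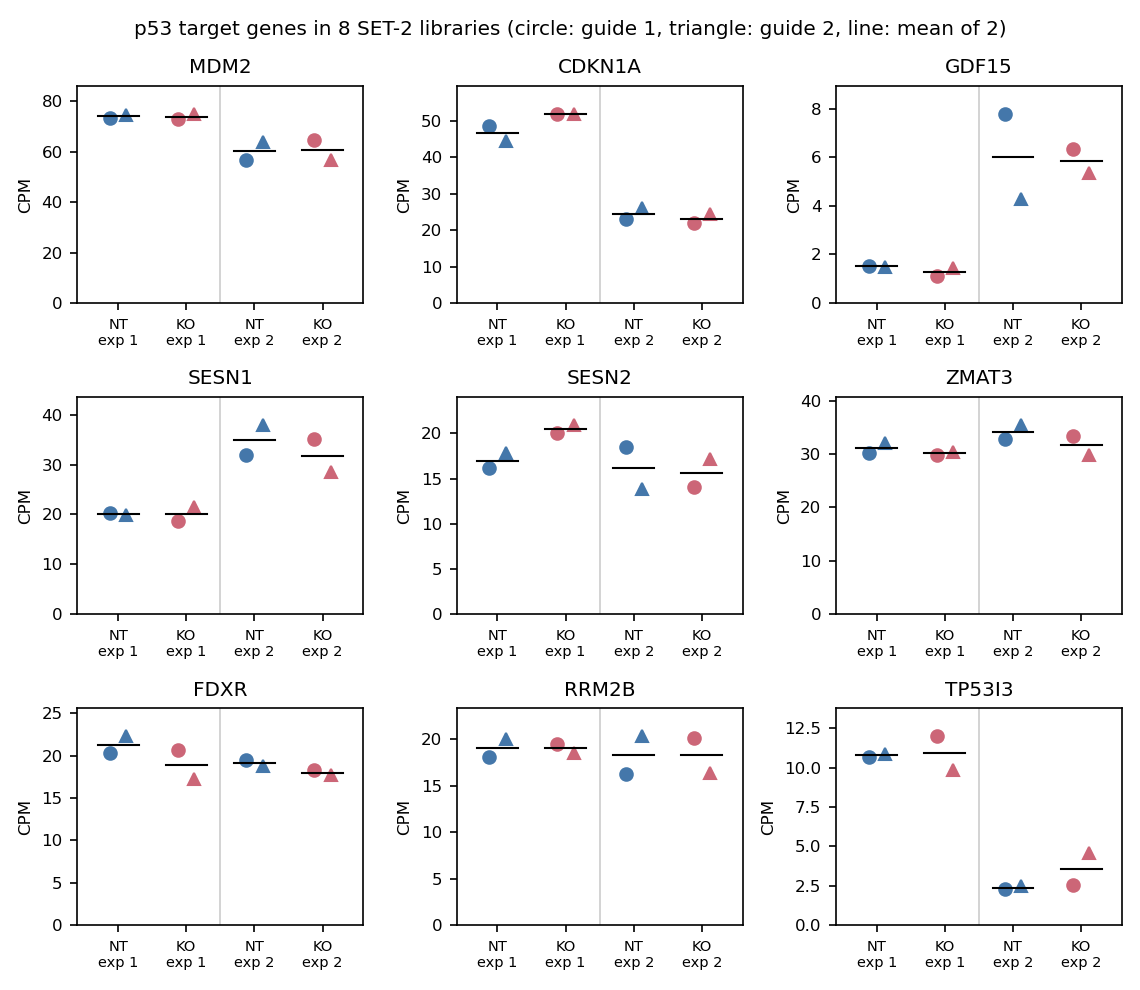
CPM of each p53 target gene in all 8 libraries, by experiment and genotype (NT, non-targeting, blue; KO, ZRSR2 guide, red), with circles for guide 1, triangles for guide 2 and a line at the mean of 2. CDKN1A and TP53I3 drop and GDF15 and SESN1 climb between the experiments in both genotypes, while the blue and red points lie at similar heights within an experiment.

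Of the genes shown above with a decamer pair in a promoter window, MDM2 fell, GDF15 and SESN1 rose and FDXR did not pass. Of those without a match, CDKN1A and TP53I3 fell and SESN2 and ZMAT3 did not pass. The annotation places exons of genes of the opposite strand over MDM2, CDKN1A, SESN1 and TP53I3, and of a gene of the same strand over MDM2, and the strand setting of the counting is not stated, which leaves uncertain any count whose reads such a gene could share.

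The wider p53 pathway also moved in both directions. Of 45 further p53 targets, 42 were tested, and 14 rose and 10 fell, with a median log2 fold change of 0.019 against 0.003 over all tested genes. The 24 called genes were 57.1% of the list, against the 58.2% of the background. TP53INP1, an autophagy and death factor, went from 16.9 up to 71.4 CPM, or 2.07 on the log2 scale (SE 0.14, adjusted p = 1.76e-06 in edgeR), and NINJ1, a membrane protein of cell rupture, rose by 1.19 (SE 0.16). BTG2, an antiproliferative gene, went from 62.9 down to 25.5 CPM, or −1.30 on the log2 scale (SE 0.13, adjusted p = 1.48e-05 in edgeR), and the nuclease gene AEN fell by 1.13 on the log2 scale (SE 0.13). SPATA18 and EDA2R had 0 counts in every library and SFN up to 4 counts.

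Among 20 regulators of p53, 19 were tested, and 5 rose and 7 fell, with a median log2 fold change of −0.099. These were 63.2% of the tested regulators, against the 58.2% of all genes. PPP1R13L, which encodes the inhibitor iASPP, rose from 8.72 to 22.3 CPM, and UBE4B, a ubiquitin ligase that acts with MDM2, from 187 to 330 CPM. The experiment 2 mean of PPP1R13L was raised by one library. It was at 18.7 and 37.9 CPM in the non-targeting and 14.7 and 18.0 CPM in the knockout libraries there. Leaving out one library gave log2 fold changes of PPP1R13L from 1.02 to 1.53. RPL11, a ribosomal protein that can bind and block MDM2, fell from 692 to 506 CPM, and the kinase gene HIPK2 from 110 to 81.9 CPM. The ATF4 targets were examined because GDF15 and SESN2 share that factor. Of 15, 7 rose and 1 fell, with a median of 0.135 against 0.003 over all tested genes. The called share of 53.3% was also near that of all genes. Its direction was less even than over all genes, where 29.6% were called higher and 28.6% lower. This imbalance was not tested. VLDLR rose from 2.26 to 11.0 CPM and DDIT4, an mTORC1 inhibitor, from 112 to 258 CPM. ATF3 was the gene that fell, from 7.69 to 5.68 CPM with an edgeR adjusted p of 0.0400, and 6 of the 8 fits that each left out a library took it past 0.05. ATF4 itself was at 418 and 388 CPM, with an adjusted p of 0.258.

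**Figure D3:**
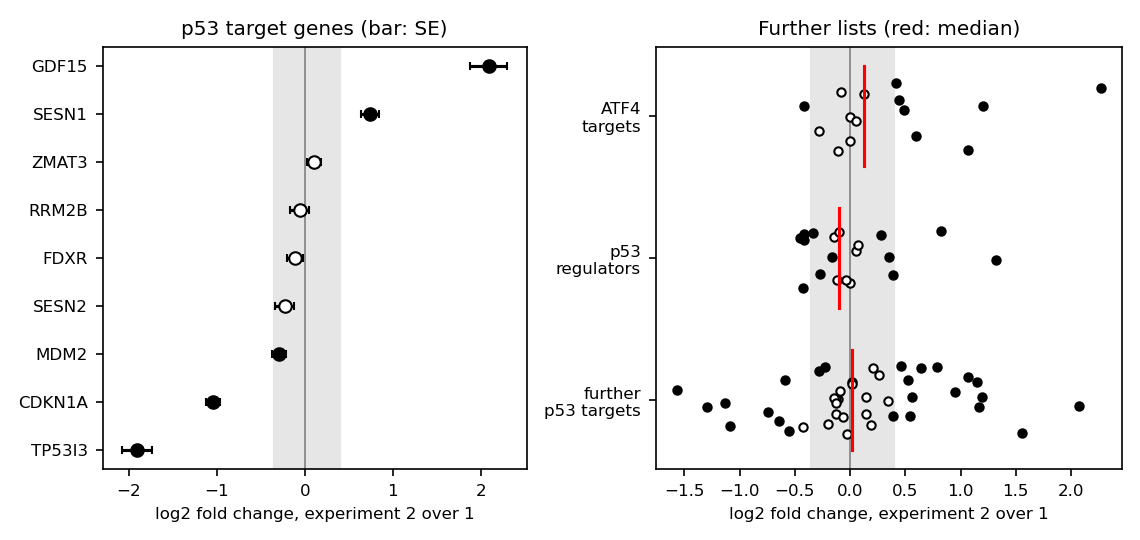
Log2 fold change of experiment 2 over experiment 1, for each p53 target gene with its SE (left) and for each tested gene of the 3 further lists (right), with filled points for an adjusted p under 0.05, a red line at each list's median and grey for the interquartile range of all tested genes. GDF15 at 2.09 and TP53I3 at −1.91 mark the ends of the members, and the further p53 targets spread on both sides of 0.

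Some markers of other cell types also differed between the experiments. The 3 B cell markers summed to 10.3 to 11.5 CPM in experiment 1 and 32.5 to 51.2 CPM in experiment 2, carried by CD79A, while MS4A1 had 0 counts in every library. The 3 fibroblast markers summed to 1.86 to 2.63 CPM and 6.23 to 7.35 CPM, and the 3 epithelial markers to 30.4 to 37.6 CPM and 33.1 to 45.9 CPM, which overlap. Among the epithelial markers EPCAM rose from 5.36 to 16.0 CPM (edgeR adjusted p = 0.000109), CDH1 was at 29.6 and 22.8 CPM (adjusted p = 0.0771) and KRT19 at 0.138 and 0.0437 CPM. The 2 monocyte markers summed to at most 1.04 CPM in any library. The part of these genes in the changes of the p53 targets was not tested.

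Knockout was compared with non-targeting to ask whether ZRSR2 loss moved the p53 targets. No member was called, in edgeR with genotype alone or with the experiment as a block. Of the 9, 4 were higher and 5 lower, with a median log2 fold change of −0.002, against −0.003 over all tested genes. Called genes were 0% of all tested in both fits, and an unadjusted p under 0.05 was reached by 89 genes with genotype alone, none a member, and by 690 with the block. In no member did the 4 knockout libraries clear the 4 non-targeting ones, where 0.678% of all tested genes did so. DESeq2 with the block called 31 genes, 0.208%, and none of the 9 was among them.

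How large a change could have been missed is given by the 95% intervals when a block for the experiment is fitted. MDM2 averaged 67.3 ± 8.39 CPM in knockout and 67.1 ± 8.47 CPM in non-targeting libraries (SD, n = 4 each). Its log2 fold change was 0.01, with a 95% interval of −0.15 to 0.16. CDKN1A averaged 37.4 ± 16.5 and 35.4 ± 12.8 CPM, with a log2 fold change of 0.04 and an interval of −0.14 to 0.22. RRM2B was at 18.6 CPM in both genotypes, with an interval of −0.22 to 0.22. The intervals of ZMAT3 (−0.24 to 0.09), FDXR (−0.32 to 0.07), SESN1 (−0.28 to 0.14) and SESN2 (−0.15 to 0.36) were of similar width. They were wider for GDF15, at −0.55 to 0.30, and for TP53I3, at −0.11 to 0.67. None of these intervals reached a 2-fold change in either direction.

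Within experiment 1, 3 members had knockout libraries clear of the non-targeting ones, where 36.4% of all tested genes did. CDKN1A was higher, at 51.7 and 51.7 against 48.4 and 44.5 CPM, and SESN2 was higher, at 20.1 and 20.9 against 16.2 and 17.8 CPM. GDF15 was lower, at 1.1 and 1.46 against 1.52 and 1.49 CPM. Their log2 fold changes were 0.16 (SE 0.11), 0.27 (SE 0.16) and −0.22 (SE 0.33), each with an edgeR adjusted p of 1. In experiment 2 none of these 3 kept the separation. The estimates there were −0.08 for CDKN1A, −0.06 for SESN2 and −0.06 for GDF15.

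Within experiment 2, FDXR and TP53I3 were clear of the controls, where 23.5% of all tested genes were. FDXR was at 18.3 and 17.7 CPM in knockout against 19.5 and 18.8 CPM, which is −0.09 on the log2 scale (SE 0.13). TP53I3 had a log2 fold change of 0.60 (SE 0.25), with an unadjusted p of 0.0378 and an edgeR adjusted p of 0.998. It rested on the guide 2 library: without knockout replicate 4 the value was 0.13, and without knockout replicate 3 it was 0.95. In experiment 1 its log2 fold change was 0.02 (SE 0.23). No member cleared the controls in both experiments in the same direction, as 5.73% of all tested genes did. The test of the difference between the experiments called 0% of all genes and no member. The largest difference among members was that of TP53I3, at 0.58 (SE 0.34, edgeR adjusted p = 1).

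**Figure D4:**
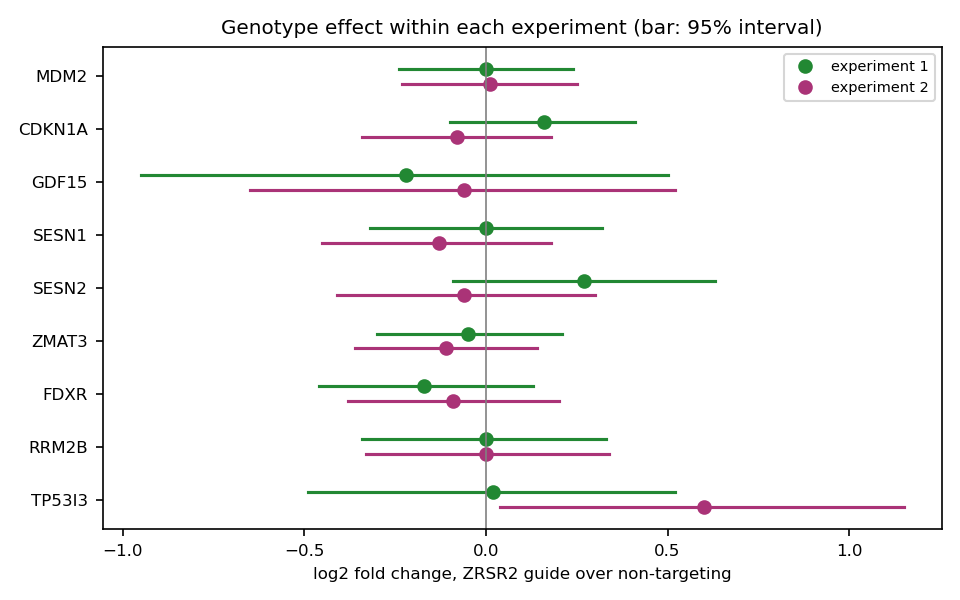
Log2 fold change of ZRSR2 guide over non-targeting libraries for each p53 target gene, within experiment 1 (green) and experiment 2 (purple), with 95% intervals from one edgeR fit over 8 libraries. All intervals include 0 except that of TP53I3 in experiment 2, whose lower end is 0.04 before adjustment over genes.

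Guide by guide, 6 of the 9 members (MDM2, GDF15, SESN1, SESN2, ZMAT3 and RRM2B) had a log2 fold change of larger size between the control guides than between the genotypes. For SESN2 the values were close, at 0.13 and 0.12, as for ZMAT3, at −0.10 and −0.08. The control guides set 2 libraries against 2, the genotypes 4 against 4. Quartiles over all tested genes were also wider between the control guides (−0.12 to 0.12) than between the genotypes (−0.08 to 0.06). The share of all genes with this order was not computed. GDF15 averaged 4.65 CPM with non-targeting guide 1 and 2.89 CPM with non-targeting guide 2, and 3.71 and 3.40 CPM with ZRSR2 guides 1 and 2 (2 libraries each). RRM2B averaged 17.2 and 20.1 CPM with the control guides and 19.8 and 17.4 CPM with the ZRSR2 guides. CDKN1A was at 35.7 and 35.2 CPM with the control guides and 36.8 and 38.0 CPM with the ZRSR2 guides. ZRSR2 itself was lowest with guide 2, at 20.8 CPM against 28.9 CPM with guide 1, and with the block guide 2 passed the test against the controls (log2 fold change −0.93, edgeR adjusted p = 0.0118). TP53I3 averaged 7.20 CPM with guide 2 and 7.31 CPM with guide 1. No member was called in any of the 4 guide comparisons, with or without the experiment as a block. They called 0% of all genes, except that ZRSR2 guide 2 against non-targeting with the block called 10 genes, 0.0671%. The comparisons of the ZRSR2 guides share their control libraries.

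The ATF4 targets were compared between genotypes as well. In experiment 1, 15 of 15 were higher in knockout, with a median log2 fold change of 0.321 against 0.002 over all tested genes, and in experiment 2 it was 8 of 15, with a median of 0.044. No gene of the list was called in either. By guide over both experiments, 14 of 15 were higher with ZRSR2 guide 2 than in the controls (median 0.253) and 9 of 15 with ZRSR2 guide 1 (median 0.012), and all 15 were lower with guide 1 than with guide 2. Between the control guides alone, 13 of 15 were higher with guide 1, with a median of 0.254. No gene of the list was called in these guide comparisons. The 42 further p53 targets had 18 higher and 24 lower in knockout over both experiments, with a median of −0.025, and the 19 regulators 10 higher and 9 lower, with a median of 0.010. None was called.

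The members did not vary as one group. Across the 8 libraries the log2 CPM of CDKN1A correlated with that of TP53I3 at 0.95 and with MDM2 at 0.89, and with GDF15 at −0.98 and SESN1 at −0.93. These are descriptions over 8 libraries that mostly restate the split between experiments. As deviations from the experiment means, CDKN1A and TP53I3 correlated at 0.12 and CDKN1A and MDM2 at −0.04. The pairs with the closest deviations were MDM2 with RRM2B at 0.92, MDM2 with SESN1 at 0.83 and SESN1 with ZMAT3 at 0.82. In experiment 2 MDM2, RRM2B, SESN1 and ZMAT3 were each highest in the libraries of ZRSR2 guide 1 and non-targeting guide 2, and SESN2 was lowest in those same libraries. Those 2 libraries had counts for 17339 and 17795 genes and the other 2 of experiment 2 for 18265 and 18398, and the part of this in the members' levels was not tested.

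The genes most like MDM2 across the 8 libraries, among 11014 with a mean of at least 5 CPM, were PAPOLA, SCYL2 and VRK2, with Pearson correlations of 0.993, 0.993 and 0.992. For CDKN1A they included DIEXF and NRP2, at 0.993 and 0.993. By deviations from the experiment means they were CTNNAL1, CASC5 and ZNF736 for MDM2, at 0.994, 0.988 and 0.987, and MAST4, ALPK1 and RAB13 for CDKN1A, at 0.973, 0.958 and 0.957. No gene of the p53 lists was among those named. Only the closest genes out of the 11014 were kept, so this does not show how near the p53 lists came.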

How the data were processed

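The members and the gene lists were chosen with earlier results of these data known. The authors deposited RSEM expected counts per gene symbol, which RSEM estimates by sharing out reads that fit several transcripts, and the values were already whole numbers. The submitters' processing notes name cutadapt 1.11, RSEM 1.2.30 and build hg19. Aligner, annotation and strand setting are not given in the sources used here. Table columns were matched to samples by the library number in the titles.

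Genes were kept by edgeR's filterByExpr (14898, at least 99.966% of each library's counts), normalised by TMM and tested with edgeR's quasi-likelihood test, with Benjamini-Hochberg adjustment over all of them. Fits used genotype alone, 4 cells of genotype by experiment, or 4 guides. SEs and 95% intervals come from the F statistic. CPM use TMM-scaled totals, and log2 CPM a prior count of 2. The fits were also run on simulated counts. Those for the genotype held no difference between the experiments, so they do not show how the fit with genotype alone behaves here. RPKM divide CPM by the exon union length of GENCODE 29, on GRCh38, matched for 22677 symbols (89.2%). Since the counts are on hg19, coordinates are given only for promoter sequences, which are RefSeq's on GRCh38.p14.

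To check the pairing, each library was centred on its genotype mean. A knockout and a control library then correlated over genes at 0.678 to 0.846 if from the same experiment and at −0.816 to −0.709 if not. The experiment therefore served as a replicate block beside the fit with genotype alone. No libraries agreed within sampling noise (smallest chi-square per degree of freedom 2.99). Named genes were all members, then from each further list the 2 per direction with the largest change between experiments among called genes averaging 5 CPM or more; CDKN2A, ATF4 and the untested genes were named after their values were seen. All listed symbols were matched, 2 of them by another symbol. Alternatives were other size factors, count filters, DESeq2, the block and leaving out each library. Software was R 4.3.3, edgeR 4.0.16, DESeq2 1.42.0, Python 3.11.15 and matplotlib 3.10.9. Some values are not reported here.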

Additional observations from a re-analysis of the deposited data

Results flagged for a closer look

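In 36 groups of 4 libraries (the 9 genes, by genotype and by experiment), 3 values stood apart from the rest of their group. Chance gives about 1 in 20 for 4 values from a single normal distribution. The genotype groups mix both experiments, and groups share libraries, so that rate does not hold for this set. TP53I3 was at 4.55 CPM in knockout replicate 4, against 2.27 to 2.57 CPM in the other libraries of experiment 2. GDF15 was at 1.1 CPM in knockout replicate 1, against 1.46 to 1.52 CPM in the other libraries of experiment 1. ZMAT3 was at 33.4 CPM in knockout replicate 3, against 29.9 to 30.4 CPM in the other knockout libraries.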

How the results depend on the processing

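Alternatives gave 827 values for 75 results, and 764 of them left the call and its direction, the count (within 1.5 times) or the level (within 1 SD) as it was. The calls of CDKN1A, TP53I3, MDM2, GDF15 and SESN1 between experiments were kept in every alternative run, with adjusted p-values up to 0.0397, and the count of all genes called ran from 7178 to 9312. Genes called for knockout against non-targeting were 0 with the replicate block, 4 with DESeq2 and 31 with DESeq2 and the replicate block. Within experiment 1 they were 40 without a count filter, 5 with DESeq2 and 0 to 2 when a library was left out. Within experiment 2 they were 116, 13 and 0 to 154, the last without non-targeting replicate 3. For the difference of these effects they were 5 without a count filter. ZRSR2 guide 2 against non-targeting gave 10 with the replicate block and 2 with DESeq2. The block added no call among the 9 genes.

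Leaving out one library turned the sign of these uncalled log2 fold changes. For knockout against non-targeting CDKN1A ran from −0.12 to 0.27, GDF15 from −0.52 to 0.55, SESN1 from −0.27 to 0.12 and TP53I3 from −0.21 to 0.50. Within experiment 1 TP53I3 ran from −0.13 to 0.16. Within experiment 2 CDKN1A ran from −0.16 to 0.02, GDF15 from −0.39 to 0.44, MDM2 from −0.09 to 0.12, SESN1 from −0.29 to 0.02 and SESN2 from −0.22 to 0.17. For the difference of effects FDXR ran from −0.06 to 0.21, GDF15 from −0.17 to 0.67, MDM2 from −0.10 to 0.12, RRM2B from −0.15 to 0.19, SESN1 from −0.29 to 0.01 and ZMAT3 from −0.15 to 0.01. RRM2B in that difference was −0.01 without a count filter. Between experiments RRM2B ran from −0.15 to 0.02. Values that rounded to 0 with all libraries also ran to both sides of 0. For knockout against non-targeting these were MDM2 (−0.07 to 0.08) and RRM2B (−0.06 to 0.05). Within experiment 1 they were MDM2 (−0.01 to 0.02), SESN1 (−0.10 to 0.10) and RRM2B (−0.07 to 0.08). Within experiment 2 RRM2B ran from −0.15 to 0.19. Of 468 values of members in the guide comparisons, 60 had the opposite sign and 0 were called. The cause of these shifts was not tested. GDF15 rested on 39 to 69 counts per library in experiment 1, which limits its precision.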
